A study of Homo sapiens with 9 samples.

Results

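The clustered histone genes were examined in RNA sequencing data of MDA-MB-231, a widely used line of triple-negative breast cancer cells (without estrogen receptor, progesterone receptor and HER2 amplification). Members were taken as all genes annotated as protein-coding whose symbol begins with HIST1H, HIST2H, HIST3H or HIST4H, which gave 71 of the 58735 genes in the files and of their 19951 protein-coding genes. They comprised 6 genes of the linker histone H1 and 17 H2A, 18 H2B, 15 H3 and 15 H4 genes, which encode the core histones. By symbol, 55 belonged to HIST1 on chromosome 6, 12 to HIST2 and 3 to HIST3 on chromosome 1, and 1, HIST4H4, lay on chromosome 12. HIST2H3PS2 starts at position 143905556, apart from the other HIST2 genes, which start at 149782689 to 149887524. The 3 groups had 3 libraries each: vehicle cells (treated with DMSO), erastin-R cells and RSL3-R cells. Per the study's results, erastin-R and RSL3-R cells had survived increased concentrations of erastin or of RSL3. Erastin is an inhibitor of the cystine transporter system xc-, and RSL3 is an inhibitor of GPX4. Both agents induce ferroptosis, a cell death driven by lipid peroxidation. All 3 groups are the same cell line without an engineered allele. The labels give only the agent, without dose or duration, and do not say whether the libraries of a group came from separate cultures, so p-values measure only the spread between these libraries.

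Histones package DNA into nucleosomes, in which pairs of H2A, H2B, H3 and H4 form the core and H1 binds the linker DNA. The clustered genes are known as the replication-dependent histone genes: most are transcribed in S phase, lack introns, and give mRNAs that end in a conserved stem-loop instead of a poly(A) tail. The stem-loop is bound by SLBP, the stem-loop binding protein. Some of these genes are also known to give polyadenylated mRNAs, particularly in cells that leave the cell cycle or differentiate. The RNA sequenced here was selected with oligo(dT), which captures poly(A) tails.

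The stem-loop is printed because it marks the usual 3′ end of these mRNAs, and the annotated transcripts of many members run past it. In GENCODE release 29 (GRCh38), the models of 36 of the 71 members extended past the stop codon, and 32 of these held the letters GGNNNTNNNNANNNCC on the coding strand within 100 bases of it, with all 6 stem pairs formed by Watson-Crick or G-T pairing. The 4 others were HIST1H1E, HIST1H1T, HIST1H4C and HIST1H2BJ. In the members with a stem-loop, it began 22 to 67 bases after the stop codon. The models of HIST1H1E, HIST1H1T and HIST1H4C end 51 to 57 bases after it and may stop short of a stem-loop. Outside the members, the same letters were found at this place in 51 genes, 0.257% of the protein-coding genes with a transcript sequence. The models of the remaining 35 members end at the stop codon and hold no sequence to search. Below, 9 expressed members and H2AFX, a histone gene outside the clusters, are shown 5′ to 3′ with the stem arms in capitals.
HIST1H2AC, chr6:26124664-26124689, plus strand: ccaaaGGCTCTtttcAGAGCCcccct
HIST1H2BC, chr6:26123467-26123492, minus strand: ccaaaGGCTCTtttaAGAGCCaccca
HIST1H2BD, chr6:26158582-26158607, plus strand: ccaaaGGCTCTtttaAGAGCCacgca
HIST2H2BE, chr1:149886183-149886208, minus strand: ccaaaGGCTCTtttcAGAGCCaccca
HIST1H2BN, chr6:27839085-27839110, plus strand: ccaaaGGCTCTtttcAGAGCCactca
HIST1H3H, chr6:27810511-27810536, plus strand: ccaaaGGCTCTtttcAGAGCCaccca
HIST1H4I, chr6:27139649-27139674, plus strand: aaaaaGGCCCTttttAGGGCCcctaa
HIST1H4H, chr6:26285126-26285151, minus strand: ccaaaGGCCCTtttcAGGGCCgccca
HIST4H4, chr12:14770719-14770744, minus strand: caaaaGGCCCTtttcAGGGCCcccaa
H2AFX, chr11:119094893-119094918, minus strand: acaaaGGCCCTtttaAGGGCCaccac
HIST1H2AC, HIST2H2BE, HIST1H2BN and HIST1H3H carried the same 16-base stem-loop, which was found in 17 of the 32 members with a stem-loop, while the H4 genes shown had stems of G and C with a single T-A pair at the loop. The transcript models of the 12 tested members with a stem-loop ran 39 to 1761 bases past it, and in 8 of them the last 40 bases held the polyadenylation signal AATAAA or ATTAAA. Whether the counted reads came from such longer, polyadenylated transcripts was not tested.

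Promoters are shown for 5 named members, because clustered histone genes often start head to head: 12 such pairs lay within 1000 bases of each other, and 3 of them had both genes tested, each represented by 1 window below (HIST1H2BC, HIST2H2BE and HIST1H2BJ). RefSeq (GRCh38.p14) gave a window of 250 bases before to 50 bases after the start for 61 of the 71 members. Capitals mark TATAAA (the TATA box), CCAAT, ATTTGCAT (the octamer bound by POU2F1) and AAACACA (an element of H1 promoters), each on either strand, so that the TATA box can read TTTATA, the CCAAT box ATTGG, the octamer ATGCAAAT and the H1 element TGTGTTT. Matches on opposite strands can overlap. In a window shared by a head-to-head pair, a match can lie on the strand of the neighbouring gene, as TTTATA does in the HIST1H2BC window.
HIST1H1C, chr6:26056421-26056720, minus strand: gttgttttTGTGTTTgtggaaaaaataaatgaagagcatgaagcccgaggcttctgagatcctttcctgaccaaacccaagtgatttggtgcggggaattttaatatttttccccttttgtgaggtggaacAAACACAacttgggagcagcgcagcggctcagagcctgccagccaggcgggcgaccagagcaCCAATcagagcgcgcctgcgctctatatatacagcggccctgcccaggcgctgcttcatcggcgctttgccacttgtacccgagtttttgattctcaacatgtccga
HIST1H2BC, chr6:26123877-26124176, minus strand: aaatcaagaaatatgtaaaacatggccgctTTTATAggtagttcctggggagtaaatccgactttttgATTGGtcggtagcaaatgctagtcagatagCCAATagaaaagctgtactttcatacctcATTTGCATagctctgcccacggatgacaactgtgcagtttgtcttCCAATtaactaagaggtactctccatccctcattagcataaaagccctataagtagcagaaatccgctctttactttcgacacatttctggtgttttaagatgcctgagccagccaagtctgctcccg
HIST2H2BE, chr1:149886633-149886932, minus strand: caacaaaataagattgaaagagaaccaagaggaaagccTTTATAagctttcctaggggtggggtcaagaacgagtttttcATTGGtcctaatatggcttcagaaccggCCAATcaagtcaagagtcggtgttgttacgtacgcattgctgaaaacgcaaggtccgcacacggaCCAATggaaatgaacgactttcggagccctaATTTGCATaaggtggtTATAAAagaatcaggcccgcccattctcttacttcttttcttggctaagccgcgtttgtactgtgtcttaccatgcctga
HIST1H2BJ, chr6:27132746-27133045, minus strand: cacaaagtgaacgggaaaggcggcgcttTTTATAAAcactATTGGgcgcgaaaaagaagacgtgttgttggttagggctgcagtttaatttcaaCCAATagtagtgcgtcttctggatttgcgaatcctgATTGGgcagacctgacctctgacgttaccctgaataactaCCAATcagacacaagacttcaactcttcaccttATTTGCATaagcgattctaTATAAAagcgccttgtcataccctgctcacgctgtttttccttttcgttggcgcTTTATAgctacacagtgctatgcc
HIST1H4H, chr6:26285485-26285784, minus strand: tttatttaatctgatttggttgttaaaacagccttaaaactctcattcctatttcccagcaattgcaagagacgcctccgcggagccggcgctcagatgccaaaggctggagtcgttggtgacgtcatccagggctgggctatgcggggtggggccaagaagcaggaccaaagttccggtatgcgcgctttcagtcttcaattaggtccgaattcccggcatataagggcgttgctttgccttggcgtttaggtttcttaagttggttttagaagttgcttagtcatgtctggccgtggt
TATAAA was found in 67.2% of the members' windows against 12% of the 27305 windows of all genes, CCAAT in 83.6% against 35.7%, ATTTGCAT in 41.0% against 1.80% and AAACACA in 14.8% against 5.76%. ATTTGCAT was found in 11 of 14 H2A and 14 of 18 H2B windows and in no window of the 29 H1, H3 and H4 genes. Windows of head-to-head pairs can overlap, so the same match can be counted for both genes, as for HIST1H2AC and HIST1H2BC. The shares are therefore not counts of separate sites. AAACACA was found in 6 of 6 H1 windows. HIST1H4H, printed above, held none of the 4 motifs in this window. A letter match describes the sequence and does not show that a factor binds. The shares count either strand at any position of the window, so a TATAAA match need not be the member's own TATA box.

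Total counts were 15405102 to 17273464 per library, and 16188 genes were tested. Counts of VIM, CD44, EGFR and KRT18, known to be expressed in MDA-MB-231 cells, were at least 1093 in every library, whereas the hormone receptor genes ESR1 and PGR had at most 12 and 2. The 5 markers of other cell types together had 298.0 to 338.0 counts in vehicle, 165.0 to 221.0 in erastin-R and 423.0 to 486.0 in RSL3-R libraries. PECAM1 (endothelium) had 154 to 177, 20 to 36 and 199 to 222 counts in the same order, CDH1 (luminal epithelium) 14 to 27, 6 to 20 and 53 to 59, and PTPRC (leukocytes) 4 to 11, 3 to 11 and 19 to 24. COL1A1 (fibroblasts) had 111 to 205 counts over all libraries and ALB (hepatocytes) 0 to 6. Against vehicle, PECAM1 was called lower in erastin-R cells, as was KRT18, and CDH1 and PTPRC were called higher in RSL3-R cells, while PECAM1, CDH1, PTPRC and KRT18 were called higher in RSL3-R than in erastin-R cells. The part of these differences in the histone results was not tested. Erastin-R replicate 1 stood apart from the other libraries on the third principal component, which held 6.71% of the variance (-35.7, against 13.0 and 14.4 for the other erastin-R libraries). Values without it are given beside some of the results that it moved.

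Few of the members had enough counts for a fold change. Only 18 of the 71 had 10 or more counts in at least 3 libraries, the requirement for a fold change, and they held 98.6% of the members' counts. The filter of the fit kept the same 18, against 12970 of the 19951 protein-coding genes and 16188 of all 58735 genes. The 18 were 2 of 6 H1, 3 of 17 H2A, 9 of 18 H2B, 1 of 15 H3 and 3 of 15 H4 genes. Of these, 12 reached 10 counts in all 9 libraries and 6 in 3 to 8 libraries (HIST1H1E, HIST1H2BE, HIST1H2BO, HIST1H3H, HIST2H2AC and HIST4H4). Since a gene could pass through only the group where it was high, counts over the 18 describe the tested members and not the family. Of the other 53, 21 had no count in any library and 20 had at most 1 to 3 counts. A count of 0 allows up to 3 counts, or 0.175 to 0.193 CPM (counts scaled to a library of 1e6 reads) depending on the library, as counting error alone. The remaining 12 reached 4 or more counts in some library, the highest being HIST1H3C with 6, 2 and 5 counts in vehicle, 12, 7 and 13 in erastin-R and 4, 2 and 4 in RSL3-R libraries. The 53 together held only 19 to 60 counts per library.

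**Figure D1:**
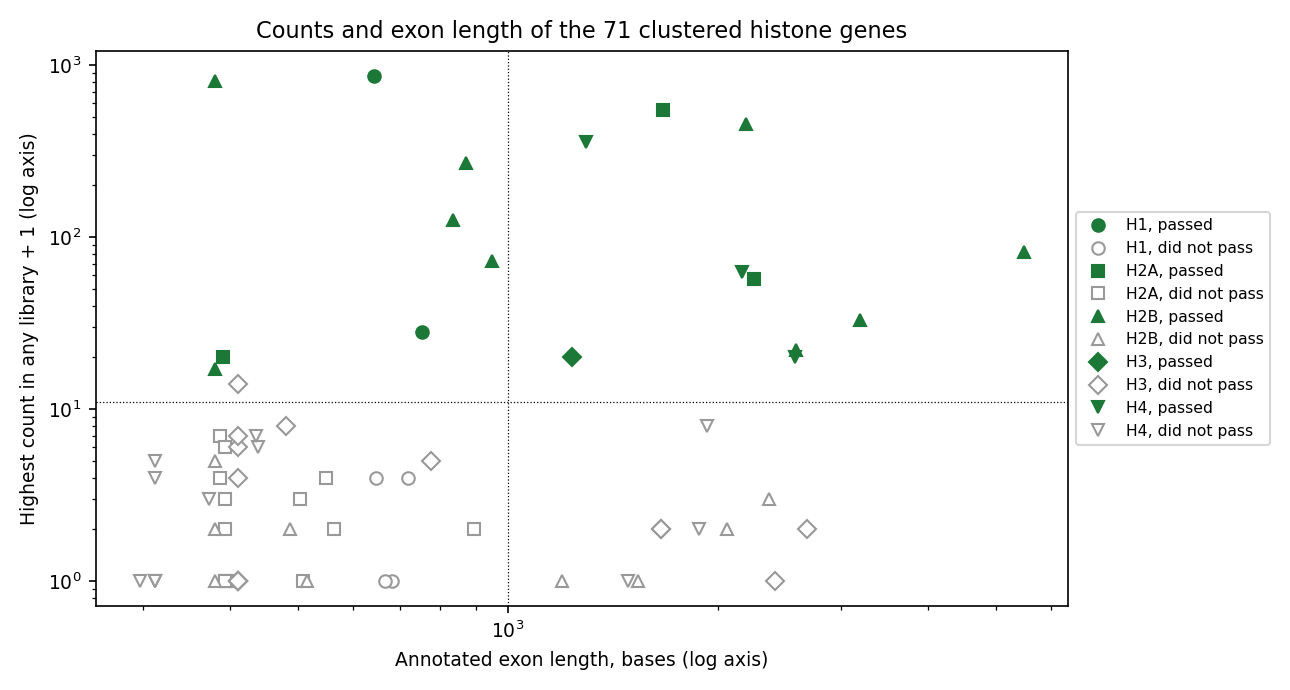
The highest count of each of the 71 members in any library, plus 1, is plotted against its annotated exon length, both on log axes, with 1 point per gene, shapes for the histone type and filled points for the 18 genes that passed the filter. Of 21 genes with 1000 bases or more (right of the vertical line) 10 passed, and of 50 shorter genes 8 passed.

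The longer gene models passed more often. Of the members with at least 1000 bases of annotated exons, 10 of 21 (47.6%) passed, against 8 of 50 (16%) of the shorter ones, and with a split at 700 bases 14 of 28 (50%) against 4 of 43 (9.30%). Length alone did not separate them. HIST1H2BG (1534 bases), HIST1H3G (2411 bases) and HIST1H4E (1487 bases) had no count, while HIST1H2BK (381 bases) and HIST1H1C (642 bases) were among the members with the most counts. These shorter and longer models also differ in the sequence that could be counted, since the shorter ones mostly end at the stop codon. The authors counted only uniquely mapped reads, and the share of 50-base words that a member's transcripts share with other genes was small for most (median 5.0% for the 18 tested members, 0.0872% for the other 53, of which 11 shared over 90%). Of the 21 members without a count, 14 shared no such word with another gene and 4 shared over 90% (HIST1H2AD, HIST1H2AK, HIST1H3D and HIST2H3PS2). Of these 4, another gene model covered 98.0% to 100% of the exons, so that their 0 is no measured absence.

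HIST1H2BK, an H2B gene, was the most abundant member per library size, and 74.1% of its 50-base words occur in other genes, chiefly in H2BFS, which had at most 2 counts. Its level is therefore uncertain. The 5 members with the highest mean CPM, HIST1H2BK, HIST1H1C, HIST1H2AC, HIST1H4I and HIST2H2BE, held 78.0% of all member counts. Per exon length, HIST1H2BK (mean over the 9 libraries 89.9 FPKM, fragments per kilobase of exon, scaled to library size) and HIST1H1C (46.9 FPKM) stood above 97.8% and 94.6% of the 12970 tested protein-coding genes, whose median was 5.79 FPKM. HIST1H2AC (15.1 FPKM), HIST1H2BD (14.3 FPKM), HIST1H4I (12.3 FPKM) and HIST2H2BE (6.82 FPKM) were also above that median, and the other 12 tested members, from HIST4H4 (0.239 FPKM) to HIST1H2BC (4.88 FPKM), were below it.

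**Figure D2:**
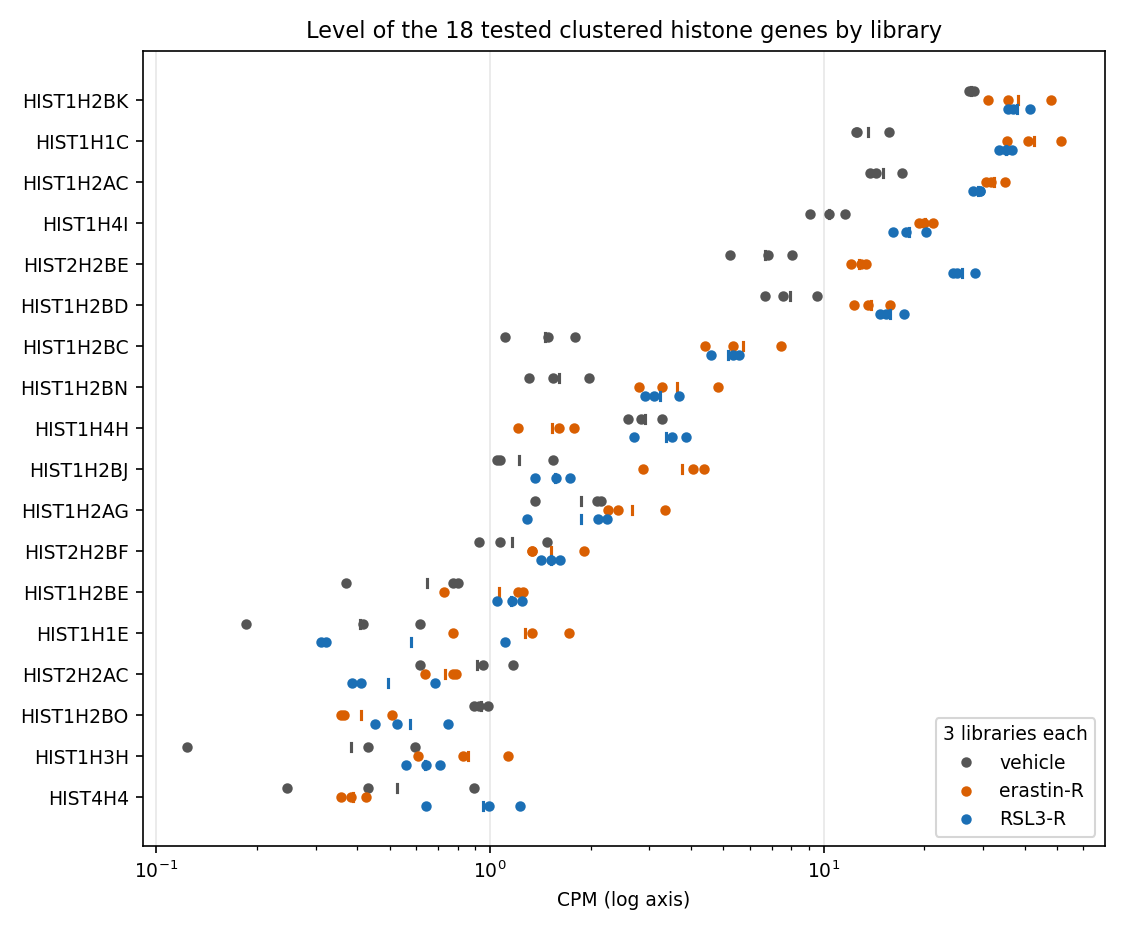
CPM on a log axis is shown for the 18 tested members, 1 point per library and a tick at the mean of the 3 libraries of each group, in order of the mean level. The vehicle points of HIST1H1C (12.5 to 15.7 CPM) lie below all points of the erastin-R and RSL3-R libraries, whereas for HIST1H4H the erastin-R points (1.22 to 1.78 CPM) are the lowest.

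Summed over all 71 members, counts were 1581, 1632 and 1559 in vehicle, 3549, 2666 and 2949 in erastin-R and 2800, 3043 and 3155 in RSL3-R libraries. Every erastin-R and RSL3-R library was above every vehicle library. As a share of the library total, the sum in erastin-R cells was 1.96 ± 0.20 times (SD, n = 3 per group) and in RSL3-R cells 1.92 ± 0.084 times that in vehicle cells. Without erastin-R replicate 1, the highest library, the ratio was 1.85. Without HIST1H2BK the ratios were 2.18 and 2.13. In bulk RNA, a change in the number of cells that express a gene and a change in RNA per cell cannot be told apart.

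By type, the summed level of the H1 genes was 14.0 ± 2.0 CPM (SD, n = 3) with vehicle, against 44.0 ± 7.6 CPM for erastin-R and 35.8 ± 2.0 CPM for RSL3-R. The H2A genes reached 18.1 ± 1.2, 36.5 ± 1.8 and 31.6 ± 0.98 CPM in the same order. In the H1 sum of erastin-R cells, replicate 1 had 52.2 CPM and the other libraries 37.2 and 42.5 CPM. For H2B the sums were 49.4 ± 2.5, 81.1 ± 14 and 93.0 ± 4.5 CPM, with 97 CPM in erastin-R replicate 1 against 69.8 and 76.5 CPM in the other erastin-R libraries. For H4 they were 14.4 ± 1.8, 22.8 ± 0.98 and 22.9 ± 2.0 CPM. The H3 genes had the lowest sums, 1.11 ± 0.53, 2.42 ± 0.44 and 1.42 ± 0.12 CPM. The sum over the HIST2 locus was 9.06 ± 1.3, 15.6 ± 1.2 and 28.5 ± 2.4 CPM, and most of these counted reads were assigned to HIST2H2BE. Only uniquely mapped reads were counted. HIST2H2AA3, HIST2H2AA4, HIST2H3A, HIST2H3C, HIST2H3PS2, HIST2H4A and HIST2H4B share 97.1% to 100% of their 50-base words with other genes. Their reads may have been left out, so the part of HIST2H2BE in the RNA of the locus is uncertain. The same limit applies to the H2A, H3 and H4 sums, which include these genes.

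**Figure D3:**
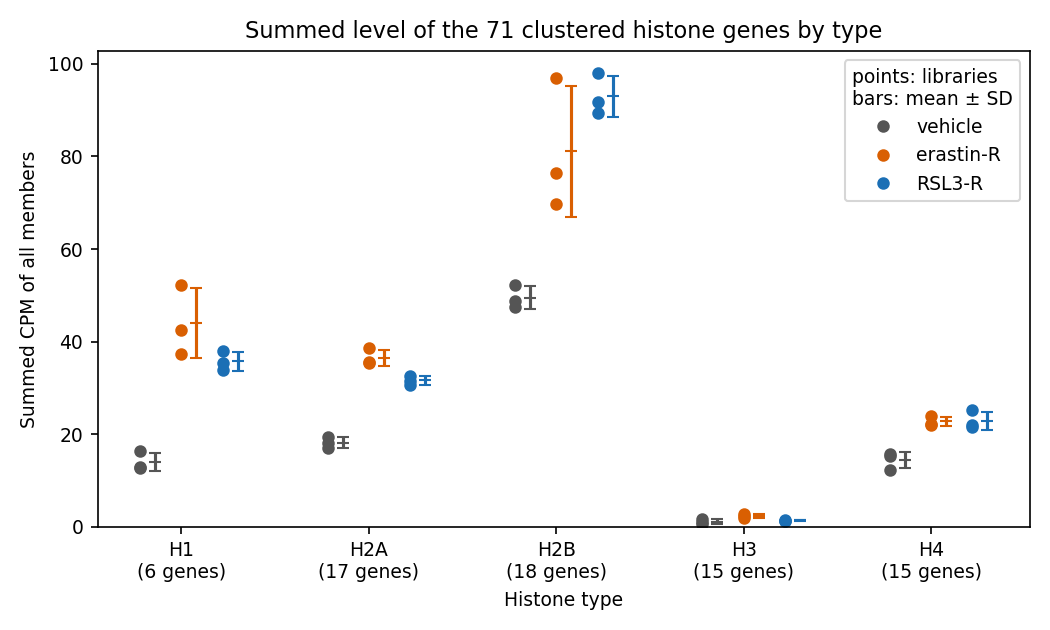
The summed CPM of all members of each histone type is plotted per library (points), with the mean ± SD of the 3 libraries of each group beside them. H2B sums were the highest in each group, and H1 sums rose from 14.0 CPM in vehicle to 44.0 CPM in erastin-R cells. HIST1H1C alone held 13.6 and 42.6 CPM of these H1 sums.

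Which members differed between erastin-R and vehicle cells was tested across all 16188 genes with edgeR's quasi-likelihood test and Benjamini-Hochberg adjustment. Genes with an adjusted p under 0.05 and a log2 fold change of at least 1 in either direction were called. Of the 18 tested members 6 were called higher (HIST1H1C, HIST1H1E, HIST1H2AC, HIST1H2BC, HIST1H2BJ and HIST1H2BN), against 6.7% of all tested genes, and 1 lower (HIST1H2BO), against 6.66%. By the adjusted p alone 10 were higher and 2 lower, against 27.1% and 26.8% of all tested genes. The median log2 fold change of the 18 was 0.87, and that of all tested genes 0.00. In RSL3-R cells 4 members were called higher (HIST1H1C, HIST1H2BC, HIST1H2BN and HIST2H2BE), against 6.02% of all tested genes, and 0 lower, against 4.08%. By the adjusted p alone 8 were higher and 0 lower, against 23.8% and 24.9%, and the median was 0.76 against 0.01 for all tested genes. Of the members lower in RSL3-R cells, 1 had an unadjusted p under 0.05 with edgeR, and adjusted p-values under 0.05 were found for 0 with DESeq2 and 2 with limma. Both comparisons use the same vehicle libraries.

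Of the 6 H1 genes 2 were tested. HIST1H1C, which encodes the linker histone H1.2, was measured at 12.6, 15.7 and 12.5 CPM in vehicle, 51.4, 35.5 and 41.0 CPM in erastin-R and 33.5, 35.1 and 36.6 CPM in RSL3-R libraries. The vehicle libraries did not overlap with those of either other group. It rose by 1.65 ± 0.13 on the log2 scale (fitted value ± SE, adjusted p = 2.2e-07) in erastin-R and by 1.37 ± 0.13 (adjusted p = 1.6e-06) in RSL3-R cells. HIST1H1E, which encodes H1.4, had few counts, with 7, 10 and 3 in vehicle, 13, 27 and 22 in erastin-R and 5, 5 and 19 in RSL3-R libraries. It met the requirement of 10 counts in 5 libraries, of which 3 were erastin-R libraries. It was called in erastin-R cells (log2 fold change 1.63 ± 0.54, adjusted p = 0.021), and this call was lost without vehicle replicate 1, vehicle replicate 3 or erastin-R replicate 2 (adjusted p up to 0.090). In RSL3-R cells, 1 library was above the vehicle range and the value was 0.53 ± 0.61 (adjusted p = 0.50).

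Among the H2A genes, HIST1H2AC was the most abundant, with 13.7, 17.2 and 14.4 CPM in vehicle, 30.6, 35 and 31.7 CPM in erastin-R and 29.3, 29.4 and 28.1 CPM in RSL3-R libraries. All 6 erastin-R and RSL3-R libraries were above the vehicle range. Its log2 fold changes were 1.10 ± 0.10 (adjusted p = 6.6e-07) and 0.94 ± 0.10 (adjusted p = 3.7e-06), the second just under the fold required for a call. HIST1H2AG (1.29 to 3.34 CPM) and HIST2H2AC (0.387 to 1.17 CPM) did not pass the adjusted p in either comparison with edgeR, while limma on quantile-normalized values gave HIST2H2AC an adjusted p of 0.026 in RSL3-R cells.

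Of the 18 tested members, 9 were H2B genes. HIST1H2BC lies head to head with HIST1H2AC, with 218 bases between the gene starts, and the promoter window printed for it covers this stretch. It had 1.49, 1.79 and 1.11 CPM in vehicle, 7.44, 4.39 and 5.35 CPM in erastin-R and 4.58, 5.34 and 5.55 CPM in RSL3-R libraries, without overlap between vehicle and either other group. Its increases, 1.97 ± 0.24 in erastin-R (adjusted p = 1.2e-05) and 1.81 ± 0.24 in RSL3-R cells (adjusted p = 3.3e-05), were the largest fitted value of a member in the first comparison and the second largest in the other. Without erastin-R replicate 1 the first was 1.73, under the 1.89 of HIST1H1E in the same fit. HIST2H2BE had 5.25, 6.79 and 8.02 CPM in vehicle, 13.3, 12 and 12.9 CPM in erastin-R and 24.3, 28.3 and 25.0 CPM in RSL3-R libraries, so that the 3 groups lay in 3 separate ranges. It rose by 0.94 ± 0.14 (adjusted p = 8.3e-05) in erastin-R and by 1.95 ± 0.14 (adjusted p = 6.4e-08) in RSL3-R cells. HIST2H2AC, which starts 322 bases away on the opposite strand, had log2 fold changes of -0.31 ± 0.37 and -0.88 ± 0.40 (adjusted p = 0.50 and 0.083).

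HIST1H2BJ had 1.07, 1.54 and 1.05 CPM in vehicle, 4.05, 2.86 and 4.38 CPM in erastin-R and 1.74, 1.37 and 1.58 CPM in RSL3-R libraries. Only the erastin-R libraries lay apart from vehicle. It rose by 1.62 ± 0.25 (adjusted p = 1.0e-04) in erastin-R cells, and its value in RSL3-R cells was 0.35 ± 0.28 (adjusted p = 0.32). Its head-to-head neighbour HIST1H2AG, 291 bases away, had log2 fold changes of 0.51 ± 0.27 (adjusted p = 0.13) and 0.01 ± 0.29 (adjusted p = 0.98). Without erastin-R replicate 1 the first was 0.32. HIST1H2BN had 1.31, 1.54 and 1.97 CPM in vehicle, 4.82, 2.80 and 3.28 CPM in erastin-R and 3.67, 2.92 and 3.10 CPM in RSL3-R libraries, again without overlap with vehicle. Its values were 1.18 ± 0.25 (adjusted p = 0.0014) and 1.002 ± 0.26 (adjusted p = 0.0052). They lie near the fold required: without erastin-R replicate 1 the first was 0.92, and the second call was lost under 9 of the 16 alternatives, with values down to 0.79. HIST1H2AK, of which this gene model covers all exons on the opposite strand, had no count. The strand setting of the counting is not given in the sources used here, so reads in this overlap cannot be told apart and the 0 is no measured absence.

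HIST1H2BK was at 27.6, 28.1 and 27.2 CPM in vehicle, 48.0, 31.1 and 35.6 CPM in erastin-R and 36.9, 41.5 and 35.5 CPM in RSL3-R libraries. It rose by 0.47 ± 0.13 (adjusted p = 0.0070) and 0.46 ± 0.13 (adjusted p = 0.0093), the smallest fitted values of the 5 most abundant members, and without erastin-R replicate 1 the first value was 0.27 (adjusted p = 0.0084). HIST1H2BD, outside the rule for named genes and given to account for the tested members, had 6.66 to 9.57 CPM in vehicle, 12.3 to 15.8 in erastin-R and 14.7 to 17.4 in RSL3-R libraries, with log2 fold changes of 0.81 ± 0.15 and 0.99 ± 0.15 (adjusted p = 3.7e-04 and 7.1e-05). HIST1H2BE and HIST2H2BF, which share 30.5% and 26.9% of their 50-base words with other genes, did not pass the adjusted p in any comparison under any of the 16 alternatives. HIST1H2BO was the member called lower, with 15, 15 and 16 counts in vehicle, 6, 8 and 6 in erastin-R and 7, 12 and 9 in RSL3-R libraries. The vehicle libraries were above all others. HIST1H2BO reached 10 counts in 4 libraries, among them every vehicle library, so it met the filter through the group where it was high. In erastin-R cells the change was -1.18 ± 0.38 on the log2 scale (adjusted p = 0.018), and in RSL3-R cells -0.70 ± 0.36 (adjusted p = 0.13), and 5 of the 16 alternatives lost the first call, among them the fits without erastin-R replicate 1 (adjusted p = 0.067) and without erastin-R replicate 3.

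The only tested H3 gene, HIST1H3H, had 10, 2 and 7 counts in vehicle, 19, 13 and 10 in erastin-R and 11, 9 and 11 in RSL3-R libraries, and its log2 fold changes of 1.14 ± 0.48 and 0.71 ± 0.50 did not pass (adjusted p = 0.058 and 0.26). In erastin-R cells it was called without vehicle replicate 1 (1.59, adjusted p = 0.035) or without erastin-R replicate 3 (1.33, adjusted p = 0.049), and with 1 library left out the values ranged from 0.72 to 1.59 and from 0.30 to 1.17. Of the H4 genes, HIST1H4I was the most abundant, with 10.4, 9.08 and 11.5 CPM in vehicle, 21.2, 19.3 and 19.9 CPM in erastin-R and 17.6, 16.1 and 20.3 CPM in RSL3-R libraries. All erastin-R and RSL3-R libraries were above vehicle, and it rose by 0.96 ± 0.12 (adjusted p = 1.4e-05) and 0.80 ± 0.12 (adjusted p = 8.8e-05), under the fold required for a call. HIST1H4H moved the other way in erastin-R cells. It had 3.28, 2.59 and 2.84 CPM in vehicle, 1.61, 1.78 and 1.22 CPM in erastin-R and 2.71, 3.85 and 3.51 CPM in RSL3-R libraries. It fell by 0.92 ± 0.23 on the log2 scale in erastin-R cells (adjusted p = 0.0044), past the fold required without erastin-R replicate 2 (-1.04), and its value in RSL3-R cells was 0.21 ± 0.21 (adjusted p = 0.44). HIST4H4 had 4 to 15 counts in vehicle, 6 or 7 in erastin-R and 11 to 19 in RSL3-R libraries and passed in neither comparison with vehicle (-0.43 ± 0.52, adjusted p = 0.50, and 0.84 ± 0.45, adjusted p = 0.14). In RSL3-R cells it was called without vehicle replicate 1 (1.46, adjusted p = 0.035), and the value was 0.50 to 1.46 with 1 library left out.

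**Figure D4:**
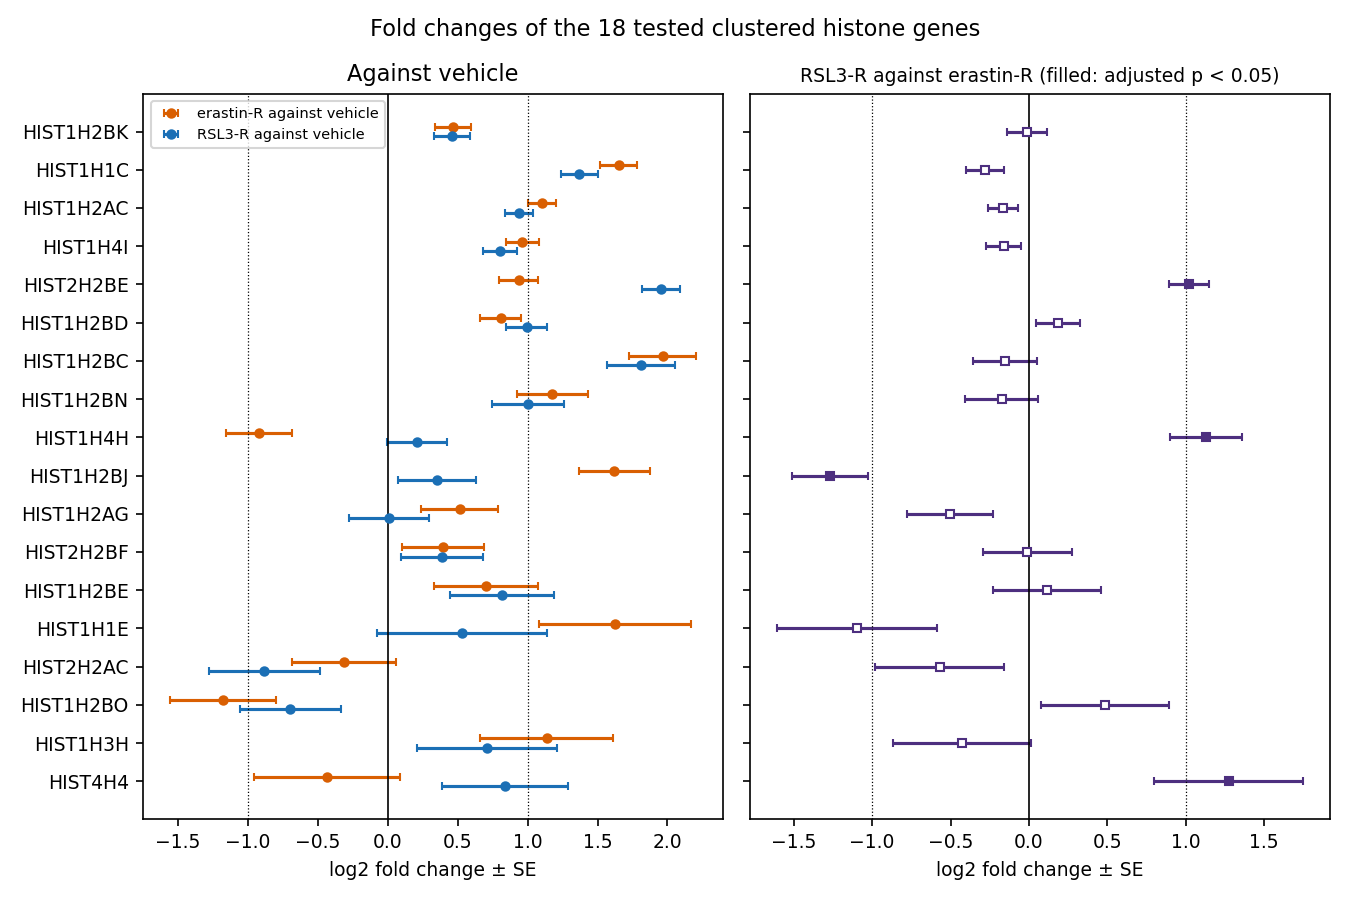
Log2 fold changes with their SE are shown for the 18 tested members against vehicle (left, erastin-R and RSL3-R) and for RSL3-R against erastin-R (right, filled where the adjusted p was under 0.05), with dotted lines at the fold required for a call. HIST2H2BE, HIST1H4H and HIST4H4 lie on the right of 0 in the direct comparison and HIST1H2BJ on the left.

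Erastin-R and RSL3-R cells were also compared directly. Relative to erastin-R cells, 3 members were called higher in RSL3-R cells, against 6.86% of all tested genes, and 1 lower, against 3.48%. By the adjusted p alone the same 3 were higher and 1 lower, against 22.3% and 26.9% of all tested genes. HIST2H2BE was higher by 1.02 ± 0.13 on the log2 scale (adjusted p = 2.2e-05), HIST1H4H by 1.13 ± 0.23 (adjusted p = 0.0011) and HIST4H4 by 1.27 ± 0.48 (adjusted p = 0.040), while HIST1H2BJ was lower (log2 difference -1.27 ± 0.24, adjusted p = 7.0e-04). For each of these 4 genes the libraries of both groups did not overlap. As the genes were picked by their call in the same libraries, this adds no separate support. The share of all tested genes without overlap was not computed. HIST4H4 reached 10 counts in 4 libraries, among them every RSL3-R library and no erastin-R library. It thus met the filter through the group where it was high, and it lost the call in 9 of 16 alternatives. Without erastin-R replicate 2, erastin-R replicate 3 or RSL3-R replicate 2 only 1 gene was called higher, since HIST4H4 was not called and HIST2H2BE or HIST1H4H then fell just short of the fold required (0.95 and 0.98 at the lowest). A second gene was called lower without any 1 of 7 libraries. It was HIST1H1E (-1.10 ± 0.51, adjusted p = 0.092, with all libraries) without erastin-R replicate 1 or RSL3-R replicate 3. Without vehicle replicate 1, 2 or 3, erastin-R replicate 2 or RSL3-R replicate 1 it was HIST1H3C, which did not meet the filter. HIST1H3C reached 10 counts in 2 libraries, both erastin-R, and entered these fits through the group where it was high. No fold change is therefore given for it.

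Other genes of histone supply were read beside the clustered genes. Replacement histones are encoded outside the clusters, by genes whose mRNAs are mostly polyadenylated. Of 11 tested, 2 rose and 8 fell in erastin-R and 2 rose and 7 fell in RSL3-R cells by the adjusted p, with median log2 fold changes of -0.37 and -0.46. Of all tested genes 27.1% rose and 26.8% fell in erastin-R cells by the adjusted p, and in RSL3-R cells 23.8% rose and 24.9% fell, which is the background of the counts in this and the following lists. None was called in erastin-R cells with edgeR (0 at an unadjusted p under 0.05 with the same fold, 0 with DESeq2 and 1 with limma), and in RSL3-R cells 3 were called lower, against 4.08% of all tested genes. H2AFX, which encodes the H2A.X that is phosphorylated at DNA breaks and whose stem-loop is printed above, had 240, 239 and 244 CPM in vehicle, 104, 169 and 163 CPM in erastin-R and 95.8, 102 and 100 CPM in RSL3-R libraries. It fell by 0.73 (adjusted p = 3.1e-04) and by 1.28 on the log2 scale (adjusted p = 2.8e-06). CENPA, the H3 variant of centromeres, fell by 0.43 and 1.29 (adjusted p = 0.0021 and 2.5e-07), and H2AFV, an H2A.Z gene, by 0.95 and 1.03 (adjusted p = 7.1e-08 and 3.2e-08). The other H2A.Z gene, H2AFZ, fell by 0.37 and 0.46 (adjusted p = 0.012 and 0.0036). H1F0, the replacement linker histone H1.0 of resting cells, was at 241, 252 and 227 CPM in vehicle, 200, 186 and 194 CPM in erastin-R and 302, 309 and 328 CPM in RSL3-R libraries. It fell by 0.31 in the first group (adjusted p = 6.1e-04) and rose by 0.38 in the second (adjusted p = 1.2e-04).

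Genes of S phase, when the clustered histone genes are usually transcribed, were lower. All 20 listed genes of DNA replication fell in both comparisons by the adjusted p, 10 and 14 of them past the fold required (against 6.66% and 4.08% of all tested genes), with medians of -0.98 and -1.17 on the log2 scale. RRM2, a subunit of ribonucleotide reductase, had 89.96, 91.2 and 89.1 CPM in vehicle, 31.8, 30.1 and 30.8 CPM in erastin-R and 21.1, 22.5 and 23.1 CPM in RSL3-R libraries, a fall by 1.54 and 2.02. UHRF1, which recruits the maintenance DNA methyltransferase, fell by 1.65 and 1.78, CDC6, a replication licensing factor, by 1.71 and 1.12, and POLA1, the catalytic subunit of DNA polymerase alpha, by 1.46 and 1.08. The replication initiation subunits GINS2 and GINS1 fell by 1.64 and 1.57 in RSL3-R cells. In its largest change each of these genes had an adjusted p of at most 4.3e-08, except POLA1 (3.1e-07) and GINS2 (1.1e-06). Whether the lower S-phase genes and the higher clustered histone genes came from the same cells was not tested.

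Of the 7 listed regulators of histone gene transcription, 1 rose and 4 fell by the adjusted p in each comparison, a small list against backgrounds of 23.8% to 27.1%. NPAT, the coactivator of the histone loci, was at 36.4 to 39.7 CPM in vehicle, 31.4 to 39.1 in erastin-R and 37.8 to 39.7 in RSL3-R libraries, and its log2 fold changes were -0.15 ± 0.090 and 0.03 ± 0.089 (adjusted p = 0.16 and 0.79). CCNE2 and CCNE1, the E-type cyclins that activate CDK2 at S-phase entry, fell by 2.09 and 0.78 in erastin-R cells and by 2.14 and 1.25 in RSL3-R cells, and E2F1 by 0.38 and 1.12 (adjusted p at most 0.0060 for each). Of 18 genes of histone mRNA end formation and decay, 8 rose and 6 fell in erastin-R (against 27.1% and 26.8% of all tested genes) and 5 rose and 5 fell in RSL3-R cells (against 23.8% and 24.9%), and none passed the fold required with edgeR (also 0 at an unadjusted p under 0.05 with that fold, 0 with DESeq2 and 0 with limma). SLBP was at 124 to 125 CPM in vehicle, 101 to 110 in erastin-R and 89.4 to 94.97 in RSL3-R libraries and fell by 0.25 (adjusted p = 0.0022) and 0.43 (adjusted p = 3.8e-05).

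Histone chaperones, which carry histones to DNA, were mostly lower. Of 20 tested, 1 rose and 13 fell in erastin-R and 3 rose and 14 fell in RSL3-R cells by the adjusted p, where 26.8% and 24.9% of all tested genes fell. CHAF1A and CHAF1B, subunits of the assembly factor CAF-1, fell by 1.06 and 0.95 in erastin-R and by 1.01 and 1.56 in RSL3-R cells, and in the latter ASF1B and the CENPA chaperone HJURP fell by 1.25 and 1.17 (adjusted p at most 3.8e-06 for each). UBN2, a subunit of the HIRA complex, had 33.1 to 38.2 CPM in vehicle, 69.0 to 80.2 in erastin-R and 67.0 to 70.2 in RSL3-R libraries and rose by 1.08 (adjusted p = 8.4e-08) and 0.95 (adjusted p = 3.0e-07).

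**Figure D5:**
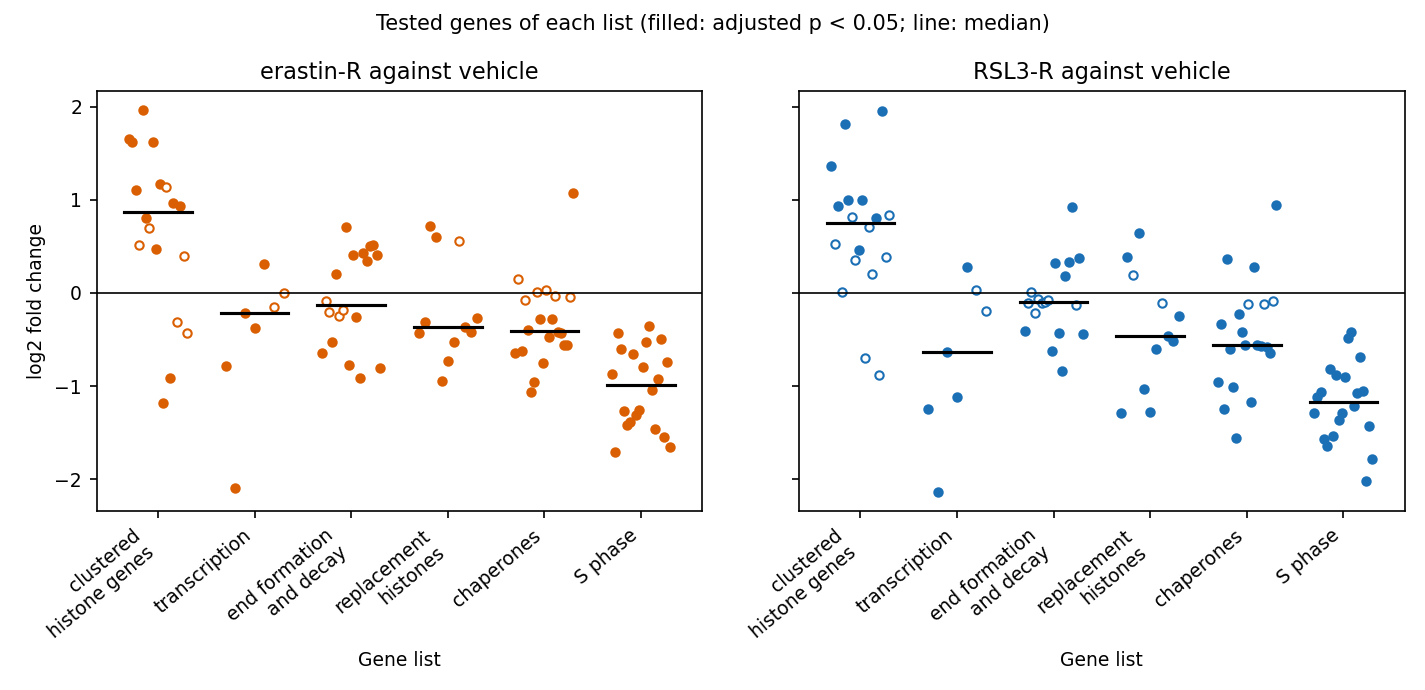
Log2 fold changes against vehicle are shown for the tested genes of each list (1 point per gene, filled where the adjusted p was under 0.05, line at the median), erastin-R on the left and RSL3-R on the right. The medians of the clustered histone genes (0.87 and 0.76) lie above 0, and those of the S-phase genes (-0.98 and -1.17) below it.

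RNAs without a poly(A) tail were examined beside the histone counts. RN7SK, RMRP and RPPH1, which are abundant in cells and not polyadenylated, were listed at 0 in all 9 libraries. Of the 25 entries of this list 2 had enough counts to be tested, SNORA73B (33 to 60 counts) and RN7SL2 (197 to 1567 counts), both named after their values were seen. RN7SL2 had 361 counts in erastin-R replicate 1 and 1522 and 1567 in the other erastin-R libraries, and was called lower in RSL3-R cells, against vehicle (log2 fold change -1.27, adjusted p = 0.045) and against erastin-R cells (-1.69, adjusted p = 0.011), the first with edgeR but not with DESeq2 or limma. Small nuclear RNA genes, most of which are also not polyadenylated, held 436 to 487 counts in vehicle, 568 to 631 in erastin-R and 573 to 630 in RSL3-R libraries, a ratio to vehicle of 1.30 ± 0.12 and 1.30 ± 0.13 in CPM, and small nucleolar RNA genes 1.10 ± 0.011 and 1.0 ± 0.058. For small Cajal body RNA genes the ratios were 1.22 ± 0.39 and 0.793 ± 0.22, and for genes annotated as miscellaneous RNA 1.34 ± 0.56 and 0.820 ± 0.26. The corresponding ratio of the clustered histone genes was 1.92 ± 0.23 and 1.90 ± 0.079. The part of carry-over of RNA without a tail in the histone counts was not tested.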

How the data were processed

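RNA of 9 libraries was analysed, 3 per group, grouped by the treatment in the labels. The authors deposited raw counts per gene, made from uniquely mapped exonic reads (HISAT2 2.0.5 and featureCounts 1.5.0-p3 per the processing notes; the strand setting is not given in the sources used here), while the FPKM values, made from these counts by the authors, were used only to compare levels between genes. Identifiers and exon lengths were those of GENCODE release 29 (GRCh38).

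The count model was edgeR 4.0.16 under R 4.3.3 (genes kept by filterByExpr, TMM factors, quasi-likelihood test, 1 model of all 9 libraries, no covariate), and p-values were adjusted over the 16188 genes tested. Genes with an adjusted p under 0.05 and a log2 change of 1 or more in either direction were called, a threshold taken from the study. Standard errors came from the fold change and its F statistic. Libraries of a group varied with a common dispersion of 0.00732 (CV 8.56%). CPM used TMM-normalized library sizes. Fold changes of members required 10 counts in 3 libraries. Intervals for single counts cover counting error only. The script was tested on simulated data.

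Alternatives were DESeq2 1.42.0, library totals, quantile normalization with limma 3.58.1, other filters, only the 2 groups compared, the replicate number as a block, no minimum fold change and each library left out. Named genes were members called in any comparison, the 5 most abundant members, the most abundant of each type and, of each other list, up to 4 called genes with the largest changes and a few fixed genes. The members and lists were chosen with earlier results of these data known.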

Additional observations from a re-analysis of the deposited data

Results flagged for a closer look

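HIST1H2BJ, HIST1H4H, HIST2H2BE and HIST4H4 are listed because their levels in RSL3-R and erastin-R cells differed in a direct test (edgeR, adjusted p under 0.05), so that their changes against the shared vehicle libraries were unequal. The log2 difference, RSL3-R minus erastin-R, was -1.27 for HIST1H2BJ, 1.13 for HIST1H4H, 1.02 for HIST2H2BE and 1.27 for HIST4H4. HIST1H2BJ and HIST2H2BE each share a promoter stretch with an H2A gene, HIST1H2AG and HIST2H2AC, that passed the adjusted p in no comparison with edgeR. With quantile normalization and limma, HIST1H2AG passed for RSL3-R against erastin-R (adjusted p = 0.046) and HIST2H2AC for RSL3-R against vehicle (adjusted p = 0.026). HIST4H4 had at most 19 counts in a library, and its adjusted p over the alternatives was 0.023 to 0.13.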

How the results depend on the processing

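Counts of called members were recomputed under 16 other fits and without a minimum fold. Without the minimum fold, 10 members were higher and 2 lower in erastin-R cells, and 8 were higher in RSL3-R cells. The 1 member called lower in erastin-R cells became 0 with DESeq2, 0 with quantile normalization and 0 without a filter on low counts. In the direct comparison, quantile normalization gave 1 higher and 2 lower, and no filter gave 2 lower. The second lower gene without a filter was HIST1H4C, which had at most 6 counts in a library and did not meet the member filter. Leaving out each library in turn gave 5 to 7 higher and 0 to 2 lower for erastin-R, 3 to 5 higher and 0 lower for RSL3-R, and 1 to 3 higher and 1 to 2 lower for RSL3-R against erastin-R. These counts include HIST1H3C where it entered a fit, although it did not meet the member filter. The summed share relative to vehicle ranged from 1.85 to 2.03 (erastin-R) and from 1.89 to 1.96 (RSL3-R), and was 2.18 and 2.13 without HIST1H2BK.

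Single genes changed sign only where the difference was not called. HIST1H1E in RSL3-R cells was -0.0088 with quantile normalization and -0.32 to 0.94 with 1 library left out, and HIST4H4 in erastin-R cells -0.77 to 0.19. For RSL3-R against erastin-R, HIST1H2BC ranged from -0.31 to 0.082, HIST1H2BN from -0.33 to 0.082 and HIST1H2BK from -0.14 to 0.18 with 1 library left out, and HIST1H2BK was 0.11 with quantile normalization, 0.00031 with the replicate block and 0.027 with only the 2 groups compared. The cause of these changes was not tested.

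Libraries of different groups with the same replicate number showed no shared deviation (correlation -0.090 to 0.052 over 9 pairs). Pairs with different numbers ranged from -0.088 to 0.12 (18 pairs). With 3 libraries per group this check cannot exclude a culture or batch shared by number. With the replicate block 6 members were called higher and 1 lower in erastin-R cells, 3 higher and 0 lower against vehicle for RSL3-R, and 3 higher and 1 lower in the direct comparison. Depth limits the 53 members below the filter and the 6 tested members under 10 counts in some library.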

Other observations

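The files also hold 19 pseudogenes of the clustered histone genes, of which 10 had a count. Their summed level was 13.1 ± 0.78 CPM in vehicle, 11.7 ± 1.3 in erastin-R and 17.4 ± 0.15 in RSL3-R libraries (SD, n = 3), a ratio to vehicle of 0.894 ± 0.11 and 1.32 ± 0.079. HIST2H2BA, chosen after its values were seen, shares 386 of the 50-base words of HIST2H2BF and had 33 to 72 counts per library.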
